A study of Mus musculus with 8 samples.

Results

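Stromal cells of lymphoid organs carry surface ligands that hold lymphocytes and release or present factors that keep them alive. A set of 10 such genes was examined in cultured murine spleen stromal cells: the adhesion genes Vcam1 and Icam1, the growth and survival factors Kitl, Csf1, Il7, Il15, Tnfsf13b and Angpt1, and the surface genes Bst1 and Pdpn. The members were found by their gene symbol in the first column of the processed expression table. Of the 10, 5 had a row among the 12589 genes of that table: Csf1, Vcam1, Pdpn, Kitl and Il15. No row was found for the other 5, Icam1, Il7, Tnfsf13b, Angpt1 and Bst1, either under these symbols or under the synonyms that RefSeq lists for them, and they are not analysed further here.

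RNA-seq was done on the line mSSC-YFP, a stromal line from mouse spleen that expresses a yellow fluorescent protein. There were 4 samples treated with BMS493, an inverse agonist of the retinoic acid receptors, and 4 treated with its vehicle DMSO, for 48 h in medium with 10% fetal bovine serum. All 8 samples come from the same line, and the labels do not say whether they are separate cultures or runs. The study asked what blocking retinoic acid signaling changes in stroma. Vcam1 is among the transcripts that the paper reports as lowered by BMS493. The table gives, for each gene, the authors' mean log2 normalized expression over all samples, called the level below. It gives no value of a single sample. No spread, sample size or test therefore belongs to any level here, and the BMS493 and DMSO groups are not compared. The study's methods give an average number of sequenced clusters per sample, but not the depth of each library. A level is an average over both treatments and cannot be read as the level of untreated stroma.

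In this biology, contact and supply go together. VCAM1 and ICAM1 on the stroma bind integrins on lymphocytes, and their engagement arrests cells and sustains their survival. Interleukin 7, interleukin 15 and BAFF, encoded by Tnfsf13b, are survival factors of lymphocyte precursors, of natural killer and memory T cells, and of B cells. KIT ligand, CSF1 and angiopoietin-1 act on blood stem cells, macrophages and vessels that share the niche.

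The 5 members with a row spanned a wide range of expression in the line. The level was 9.41 for Csf1, 8.03 for Vcam1, 7.02 for Pdpn, 5.62 for Kitl and 1.46 for Il15, on the log2 scale. Across all genes the level ran from -0.58 to 13.3 with a median of 4.99, so on this scale 4 members lay above the median and Il15 lay below the lower quartile of 3.33. Per length of the longest transcript, 3 of the 5 lay above the median, with Kitl and Il15 below it. Summed over genes, 2 raised to the level came to 989369, near the total of counts scaled to library depth (CPM), and 2 raised to a level, a geometric mean over samples, is given below in CPM. Reads accumulate with transcript length, so percentiles and counts on the level itself depend on length, and genes were ranked against each other by CPM per kilobase.

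**Figure D1:**
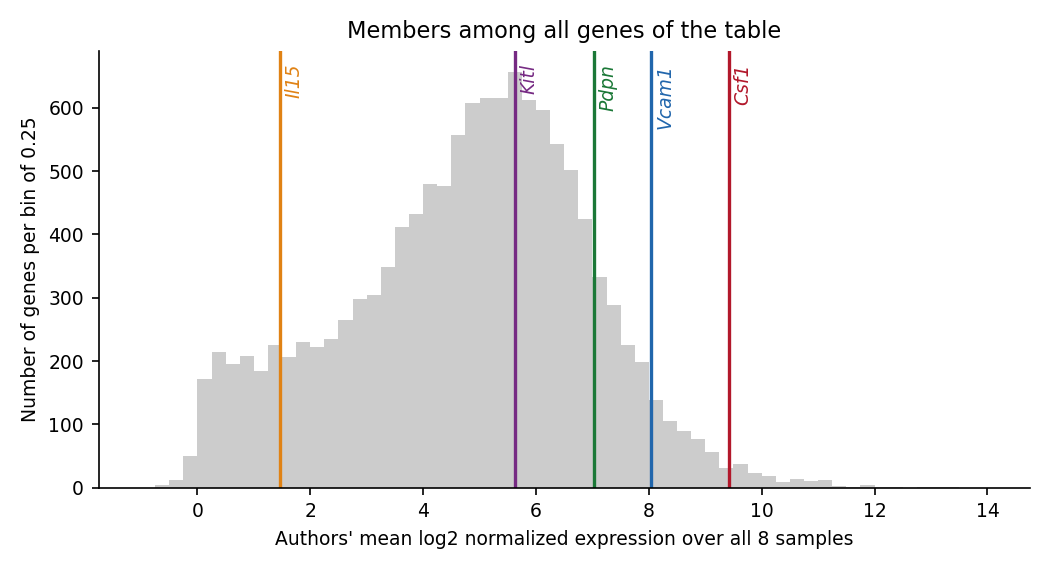
Histogram of the authors' mean log2 normalized expression over all 8 samples for the 12589 genes of the table (x axis, log2 scale; y axis, number of genes per bin). Vertical lines mark the 5 members, from Il15 at 1.46 in the low tail to Csf1 at 9.41 in the high tail, with Kitl near the peak of the distribution.

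Among the adhesion genes, Vcam1 was abundant. Vcam1 encodes the ligand of the integrin formed by Itga4 and Itgb1, by which lymphocytes adhere to stroma. The gene (ENSMUSG00000027962.14) lies on chromosome 3 from 116109949 to 116129688 of GRCm38, on the minus strand. Its level of 8.03 equals 262 CPM on the linear scale, at percentile 95.1 of all genes, with 615 genes higher. Divided by the 4088 bases of its longest transcript, it was 64.0 CPM per kilobase, at percentile 91.5. That longest transcript is annotated as a retained intron. With the longest coding transcript of 3469 bases, the value was 75.5 CPM per kilobase. Icam1, whose product binds the leukocyte integrin LFA-1, had no row.

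In a list of 14 genes for adhesion ligands of stroma and vessels, 9 had a row, and Vcam1 held place 3 of the 9 per length of the longest transcript. F11r, a junctional adhesion molecule, was at 89.9 CPM per kilobase and Cd44, the hyaluronan receptor, at 78.0. The lowest were Mcam with 6.84, Jam2 with 3.18 and Alcam with 1.78 CPM per kilobase. Madcam1, which marks marginal reticular cells of lymphoid follicles, had no row, nor had Icam2, Sele and Selp, which are genes of activated or resting endothelium. Vcam1 was thus among the well expressed adhesion ligands of the line, below 2 others on this scale, and no error is available for these distances. Not scaled by length, Vcam1 held place 2 of the 9, above F11r. Places in this list with other definitions of length were not computed.

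Pdpn, the glycoprotein podoplanin that marks fibroblastic reticular cells and binds the platelet receptor encoded by Clec1b, was also well expressed. The gene (ENSMUSG00000028583.14) lies on chromosome 4 from 143267431 to 143299564, on the minus strand. Its level of 7.02, or 130 CPM, was at percentile 86.9 of all genes. Its longest transcript has only 1817 bases, and per length Pdpn was at 71.6 CPM per kilobase, percentile 92.5. Pdpn was 1.12-fold higher than Vcam1 per length of the longest transcript and 1.05-fold lower with the longest coding transcript. It was 1.16-fold higher with the median transcript length and 2.43-fold higher with the union of exons. The order of Pdpn and Vcam1 is therefore not settled by these data. Bst1, which encodes the ectoenzyme CD157 of marrow stroma, had no row.

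Of the growth and survival factors, Csf1 was the most abundant member on every scale. Csf1 encodes the macrophage colony-stimulating factor. It (ENSMUSG00000014599.10) lies on chromosome 3 from 107741048 to 107760469, on the minus strand of the same chromosome as Vcam1. The level of 9.41 equals 682 CPM, at percentile 98.8, and 150 genes of the table were higher. Per length of its longest transcript of 4176 bases, Csf1 was at 163 CPM per kilobase, 2.28-fold above Pdpn. The annotation has 6 coding transcripts of Csf1, from 773 to 4176 bases. CSF1 is known in secreted and membrane-bound forms, which a level per gene does not separate.

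Kitl encodes KIT ligand, or stem cell factor, which is made as a membrane-bound and a shed form. The gene (ENSMUSG00000019966.18) lies on chromosome 10 from 100015630 to 100100416, on the plus strand. Its level of 5.62, or 49.2 CPM, was at percentile 62.6 of all genes. Per length it came to 8.72 CPM per kilobase, under the median of all genes of 9.73 and at percentile 46.8, with a longest transcript of 5648 bases. This value rests on the length chosen more than that of any other member. Its 6 annotated transcripts have a median of 968 bases, and with that length Kitl was at 50.9 CPM per kilobase, percentile 70.9. With the union of exons it was at 8.33 CPM per kilobase, percentile 54.3. Each percentile is among all genes scaled by the same kind of length.

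Il15 was the lowest of the 5. Interleukin 15 is held on the surface of the producing cell by its receptor chain, encoded by Il15ra, and presented to lymphocytes in trans. Il15 (ENSMUSG00000031712.10) lies on chromosome 8 from 82331632 to 82403222, on the minus strand. The level was 1.46, or 2.75 CPM, at percentile 9.70, with 11367 genes higher. Il15 was at 1.44 CPM per kilobase of its longest transcript, 6.06-fold below Kitl and 113-fold below Csf1. With the median transcript length these distances were 9.74-fold and 62.2-fold. Il15ra had a similarly low level of 1.07, or 0.909 CPM per kilobase, at percentile 7.99. How far a mean of logs at such levels depends on the count added before logs are taken was not computed. That count is not given in the sources used here.

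**Figure D2:**
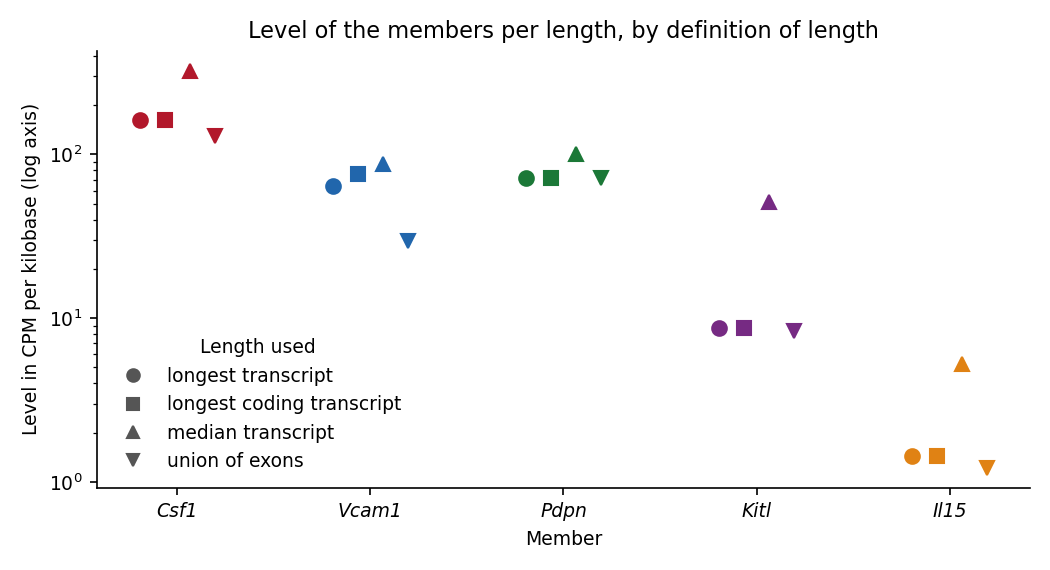
Level of the 5 members in CPM per kilobase (y axis, log scale) for 4 definitions of transcript length, shown by marker shape. Csf1 is highest and Il15 lowest with each length, Vcam1 lies between 29.5 and 87.2 and Pdpn between 71.6 and 101, and Kitl moves from 8.33 with the union of exons to 50.9 with the median transcript.

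Set among 21 growth and survival factors of stroma, 12 of which had a row, Csf1 held place 1, Kitl place 3 and Il15 place 6 per length of the longest transcript. Lif, a cytokine of the interleukin 6 family, stood between Csf1 and Kitl with 15.8 CPM per kilobase. The other 8 were lower than Kitl. Among them were Il34, the other ligand of the CSF1 receptor, with 4.24, and Igf1 with 2.28 CPM per kilobase. Flt3l, a factor of lymphoid and dendritic cell precursors, was at 0.873 and Tnfsf13, the paralog of BAFF named APRIL, at 0.697 CPM per kilobase. Il6 was at 0.713 and Hgf, the lowest of the list, at 0.572 CPM per kilobase. Angpt2, the paralog of Angpt1, was at 0.615 CPM per kilobase. Il7, Tnfsf13b and Angpt1 were among the 9 factors without a row, along with Tnfsf11, Il11, Tslp, Csf2, Csf3 and Osm. The median of the 12 was 1.16 CPM per kilobase, against 9.73 over all genes, and 2 of the 12, Csf1 and Lif, lay above the median of all genes.

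The listed receptors of these ligands were mostly without a row, as were the listed markers of blood cells. No share of all annotated genes stands beside these counts, so they are not read as a result about receptors or blood cells. Of 17 receptor genes, 12 had no row, among them Kit, Csf1r, Il7r, Il2rb, Tek, Clec1b, Itga4, Itgal and the BAFF receptor gene Tnfrsf13c. The 5 with a row were Itgb1, the widely expressed integrin beta chain, with a level of 10.4, Cd44, which also associates with podoplanin, with 8.77, Il2rg with 1.52, Il15ra with 1.07 and Itgb2 with -0.30. The genes of enzymes that shed or cleave these ligands were well represented. Adam10 had a level of 7.89, Furin, a proprotein convertase of the kind that cleaves BAFF, 6.73, and Adam17, a sheddase of VCAM1 and CSF1, 5.91. Per length of the longest transcript they were at percentiles 89.1, 68.8 and 59.5 of all genes.

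A missing row is not a measured 0. Only 68 of the 12589 genes had a level under 0, and the histogram fell off steeply there. Genes of low expression may have been removed before the table was made, but such a step is not given in the sources used here. An upper limit for Icam1, Il7, Tnfsf13b, Angpt1 or Bst1 cannot be derived without it. The share of all annotated genes without a row was not computed. The counts of members, receptors and other listed genes without a row therefore have no such share beside them.

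The labelled cell type was set beside lists of markers. These lists were chosen with earlier results of these data known, so their counts are no independent check of the label. Of 14 markers of reticular stroma, 13 had a row, and 11 of the 13 lay above the median of all genes per length of the longest transcript. Pdgfra, at percentile 34.6, and Nt5e, at percentile 2.34, lay below it. The list includes Acta2, described in the paper as a mesenchymal marker found in cancer-associated fibroblasts. These counts therefore do not single out reticular cells. Levels on the log2 scale were 13.3 for Col1a1, 12.5 for Col1a2, 11.8 for Vim, 6.27 for Eng, 5.24 for Pdgfra and 0.70 for Nt5e. Lepr had no row. Of 4 transcription factors of spleen mesenchyme, Nkx2-3 (6.53), Tlx1 (4.82) and Wt1 (4.64) had a row and Tcf21 had none. None of 8 B and T cell markers had a row. Of 8 leukocyte and myeloid markers Cd14 (3.33) and Cd68 (1.36) had one while Ptprc, the pan-leukocyte gene, had none, and of 6 endothelial markers Kdr (2.83) and Pecam1 (0.47) had one. Of the listed follicular dendritic cell genes, Cr1, Cr2, Fcer2a, Fdcsp and Cxcl13 had no row. Mfge8 (7.65) and Clu (5.93), which other stromal cells also express, had one. The paper reports Cxcl13 mRNA by qPCR in the mSSC line, induced by retinoic acid and blocked by BMS493. It also reports CXCL13 in stromal cells other than follicular dendritic cells. The missing row therefore does not show that the line lacks Cxcl13. The epithelial gene Cdh1 went against the label. It encodes E-cadherin and had a level of 8.03, or 58.8 CPM per kilobase at percentile 90.7, whereas Epcam and Krt5 had no row and Krt14 had a level of 0.96. Its part in the levels of the members was not tested.

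**Figure D3:**
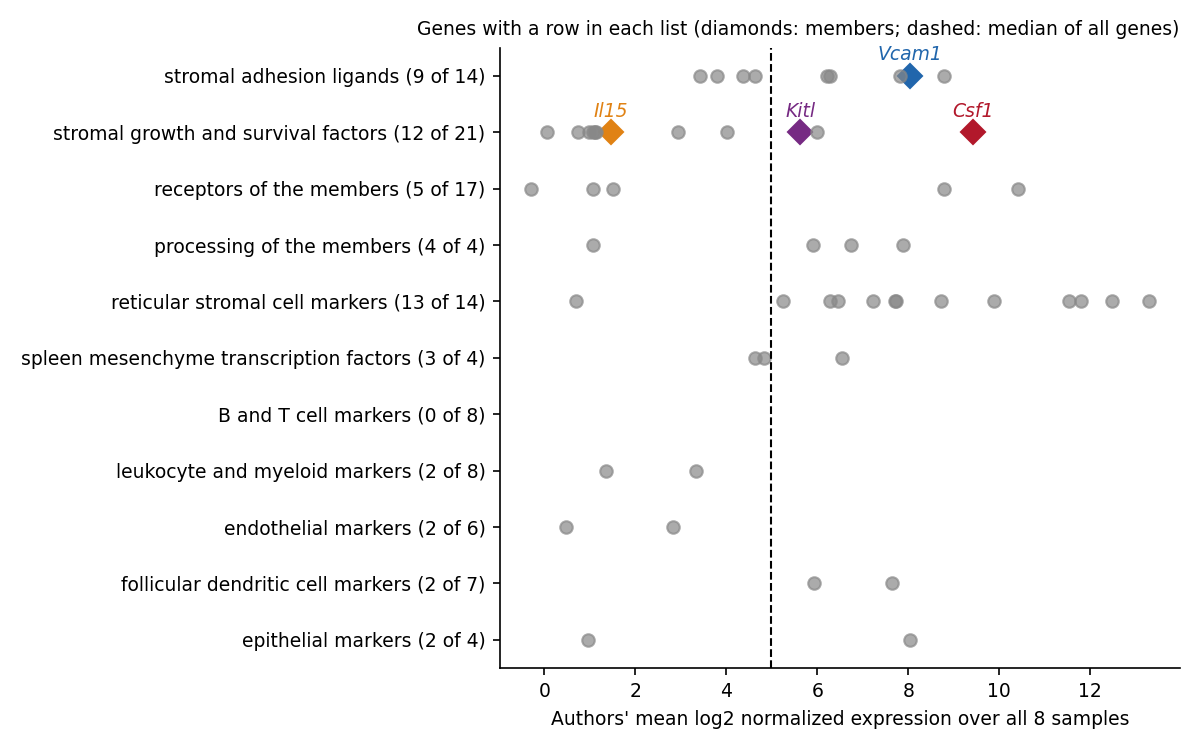
Authors' mean log2 normalized expression over all 8 samples (x axis) for every gene with a row in 11 gene lists (y axis, with the number that had a row of the number listed). Diamonds are members, circles other genes and the dashed line the median of all genes, 4.99. Vcam1, Csf1 and Kitl lie to the right of that line and Il15 to its left. Pdpn is in none of the lists and is not shown.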

How the data were processed

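RNA from 8 samples of the line mSSC-YFP, 4 per treatment, was sequenced. According to the study's methods, single-end reads of stranded mRNA libraries were mapped to mm10 (GRCm38) with STAR 2.3.0e, and uniquely mapped reads were counted on Ensembl genes with Rsubread and scaled by trimmed means of M-values. The protocol in the labels describes array amplification and qPCR instead. The authors deposited 1 table with 6 columns: the gene symbol, the mean log2 normalized expression over all samples, and 4 columns of their own comparison (log2 fold change, t, p-value and adjusted p-value), which were not used. Decimal commas were converted. With no values of single samples, the planned test of BMS493 against DMSO was not run, and no n or SD is given.

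Percentiles are shares of genes below a value. Lengths are those of the longest transcript in GENCODE M21 on GRCm38. By symbol 11765 genes matched and 603 by 1 RefSeq synonym (98.2% in all). Python 3.11.15, numpy 2.4.6, pandas 2.3.3 and matplotlib 3.10.9 were used, and the functions were tested on simulated data. The members and the gene lists were chosen with earlier results of these data known. Named genes are the members, the receptor and processing genes with a row, and the 3 highest and 3 lowest genes with a row in each list. Il34, Igf1, Flt3l, Angpt2 and the genes without a row were named after the table was read. A gene removed from the lists is not reported here. Alternatives were a minimum level of 1 and 3 other lengths.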

Additional observations from a re-analysis of the deposited data

How the results depend on the processing

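No paired analysis was possible because values of single samples were not analysed here, and for the same reason leaving out each replicate, DESeq2 size factors, other filters on counts and other pseudocounts were not run. The number of members above the median of all genes was 4, also among the 11733 genes with a level of at least 1, and 3 per length of the longest transcript, where Kitl fell under the median. Kitl also lay under it with the longest coding transcript (percentile 44.7). With the median transcript length (70.9) and the union of exons (54.3), Kitl lay above the median of all genes. Percentiles of the members moved by at most 6.59 points with the minimum level, and by at most 15.8 points per length of the longest transcript, 17.9 with the longest coding transcript, 13.3 with the median transcript and 10.0 with the union of exons. All 10 pairs of members kept their order per length with the median transcript length and with the union of exons. With the longest coding transcript, chosen after seeing the data because the longest Vcam1 transcript is a retained intron, 9 of 10 kept it, and Vcam1 passed Pdpn.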

Other observations

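In the first column of the table, 19 entries read as dates such as "set-02" and "mar-07" in place of gene symbols, and "mar-02" occurs more than once. No member or listed gene was among them.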
